A study of Homo sapiens with 8 samples.

Results

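The integrated stress response and the genes of its transcription factor ATF4 were followed in A549 cells through 38 genes, out of the 60624 Ensembl genes listed in the count tables. The genes were chosen by name, as genes of the ATF4 pathway, of serine synthesis and of amino acid transport. Earlier results of these data were known at that choice. They comprised 8 transcription factors, 9 feedback and stress regulators, 8 enzymes of serine and one-carbon metabolism, 7 other enzymes of amino acid metabolism and 6 amino acid transporters. All 38 passed the filter on low counts, which left 18661 genes for testing.

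A549 is an established human lung adenocarcinoma line. Indisulam leads to the degradation of the splicing factor RBM39, and SPHINX31 inhibits SRPK1, a kinase of SR splicing proteins. The 4 groups were untreated cells, cells with indisulam, cells with SPHINX31 and cells with both compounds (combination), and no genetic change is named for any of them. The methods of the study give 0.5 µM indisulam and 5 µM SPHINX31 for 24 h, whereas the labels of all 8 libraries, the untreated ones included, carry 2 µM indisulam and 18 h, so the dose and time are uncertain. Each group had 2 libraries, which were technical duplicates, so the p-values measure the spread between libraries and not between independent treatments. Between 51727369 and 63186989 reads were counted on genes per library. The epithelial markers KRT8, KRT18, KRT19 and EPCAM summed to between 6949 and 8189 CPM per library (counts scaled to the size of the library), and 8 markers of blood, endothelial and fibroblast cells to between 5.67 and 6.96 CPM. In this bulk RNA, fewer cells and less RNA per cell cannot be told apart, and every value is relative to the total of its library. The study reports more splicing errors with indisulam in A549 cells, above all skipped exons. Counts per gene do not separate such changes of splicing from changes in the amount of transcript.

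In the integrated stress response, kinases that sense amino acid shortage, misfolded protein, double-stranded RNA or heme shortage phosphorylate the translation factor eIF2. General translation falls while the ATF4 mRNA is translated more, and ATF4, paired with C/EBP proteins, switches on genes for amino acid import, amino acid and serine synthesis, one-carbon metabolism and tRNA charging, together with feedback genes that restore translation. ATF4 is controlled to a large part at translation and protein stability, which mRNA counts do not measure.

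The 2 combination libraries differed from each other in these genes. Of the 38 members, 35 had a higher CPM in combination replicate 2 than in replicate 1, with a median log2 ratio of 0.21 and a largest one of 0.48 for SLC1A4. Of the 12004 genes that all 8 libraries covered with 100 counts or more, 54.7% were higher in combination replicate 2. The members higher in replicate 2 numbered 22 in the untreated group, 27 in the indisulam group and 12 in the SPHINX31 group. Counts of members that rest on the combination are therefore given below with and without each of its libraries.

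ATF4 and its C/EBP partners bind a composite element whose core can be written TGATGNAA, where N is any base. These letters were searched on both strands of 35116 RefSeq promoter windows (GRCh38.p14), which run from 250 bases before to 50 bases after a start. A gene can have several RefSeq starts, and it counted as holding the letters if any of its windows did. A window was given for 32 of the 38 members, and 9 of these (28.1%) held the letters, against 4.46% of all 27305 gene symbols with a window. The members were chosen as genes of the ATF4 pathway, and the background was not matched for windows per gene or expression. These shares are therefore no test of an excess. PSPH, SHMT2, NUPR1, ALDH1L2, PYCR1 and GPT2 were without a window. The 9 stretches of 30 bases are shown because they are where the letters of the element lie beside a RefSeq start of these genes. They are written 5′ to 3′ on the strand of the gene with the matched letters in capitals.
ATF3: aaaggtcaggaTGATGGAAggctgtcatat
ASNS: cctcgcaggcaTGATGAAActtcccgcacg
MTHFD1L: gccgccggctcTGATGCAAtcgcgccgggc
CHAC1: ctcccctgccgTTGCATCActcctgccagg
CEBPG: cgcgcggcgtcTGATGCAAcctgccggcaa
SLC7A1: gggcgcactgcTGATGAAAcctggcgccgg
SLC1A4: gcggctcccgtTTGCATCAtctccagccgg
SLC1A5: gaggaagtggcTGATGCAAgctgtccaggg
JDP2: atagccggggcTGATGCAAcccgtcccgcc
On the plus strand, the stretches lie at chr1:212565205-212565234 for ATF3, chr6:150866346-150866375 for MTHFD1L, chr15:40953251-40953280 for CHAC1, chr19:33374060-33374089 for CEBPG, chr2:64989381-64989410 for SLC1A4 and chr14:75427995-75428024 for JDP2. On the minus strand, they lie at chr7:97872458-97872487 for ASNS, chr13:29595663-29595692 for SLC7A1 and chr19:46784893-46784922 for SLC1A5. CHAC1 and SLC1A4 hold the letters in the reverse orientation. In SLC7A1 the letters begin 7 bases after the RefSeq start. By the gene bounds of GENCODE 44, only the ATF3 stretch lies wholly before its gene. The others lie inside the gene or across its first base. The 9 genes belong to all 5 roles, and their log2 fold changes with indisulam ran from -1.24 for SLC1A4 to 0.15 for ATF3. With indisulam, 6 of the 9 members with the letters and 17 of the 23 members whose windows lacked them were lower than in untreated cells, with median log2 fold changes of -0.37 and -0.51. With SPHINX31, 2 of the 9 and 9 of the 23 were higher, with medians of 0.15 and 0.17. Of all tested genes, 23.5% were lower with indisulam and 4.94% higher with SPHINX31. These are descriptions of a short window, and a window without the letters says nothing about binding elsewhere.

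Indisulam alone lowered most of the stress response genes. Of the 38 members, 29 were lower than in untreated cells, where 23.5% of all tested genes were lower, and the median log2 fold change of the members was -0.46. None was higher by edgeR's quasi-likelihood test, by an unadjusted p under 0.05 or by DESeq2, where 20.1% of all genes were higher. SPHINX31 alone went the other way, with 12 members higher against 4.94% of all genes and a median of 0.15. By edgeR and DESeq2, 0 members were lower with SPHINX31 against 3.67% of all genes, and 1 member, SHMT1, was lower at an unadjusted p under 0.05. With the combination, 22 members were lower against 26.3% of all genes and 5 (ATF3, NUPR1, PPP1R15A, CEBPB and ASNS) were higher against 23.8% of all genes, with a median of -0.32. Over all tested genes, the medians of these 3 comparisons lay between -0.0064 and 0.00097. The 3 comparisons share the untreated libraries. Without combination replicate 1, 18 members were lower and 6 higher with the combination, and without replicate 2, 24 were lower and 2 higher. For SPHINX31 alone, the 12 became 8 without untreated replicate 2 or without SPHINX31 replicate 1.

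**Figure D1:**
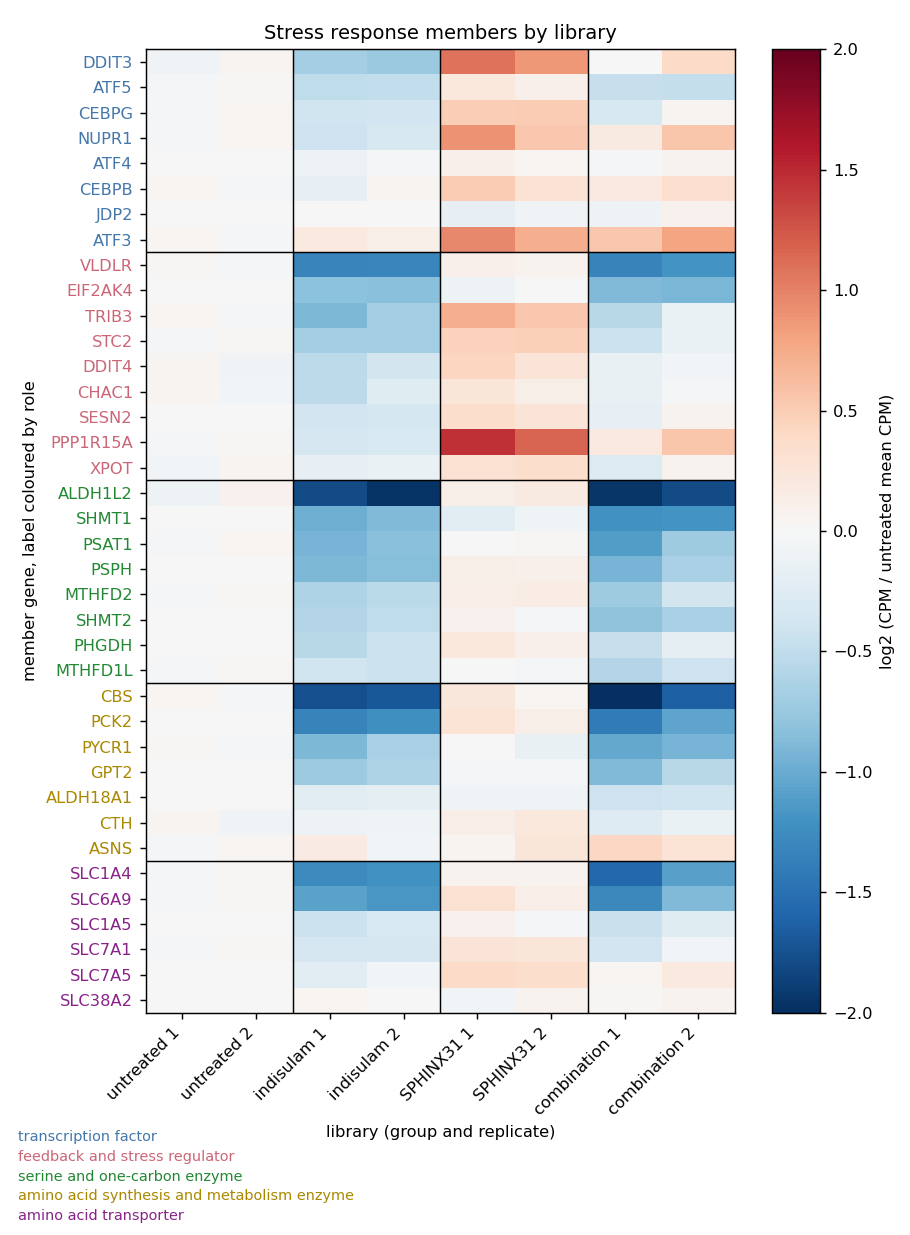
Heat map of the 38 members (rows, grouped by role) in the 8 libraries (columns), coloured by the log2 ratio of the CPM to the mean of the untreated libraries. All 8 serine and one-carbon enzymes are below untreated in the indisulam and combination libraries, and DDIT3, PPP1R15A, ATF3 and NUPR1 stand above untreated in the SPHINX31 libraries.

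The transcription factors were divided in their response. ATF4 itself (ENSG00000128272, chromosome 22, 39519695 to 39522683 on GRCh38) stood at 505 and 494 CPM in the untreated libraries, 459 and 485 with indisulam, 539 and 515 with SPHINX31 and 488 and 523 with the combination. The indisulam libraries were the lowest and the SPHINX31 libraries lay above the untreated ones, but the combination libraries overlapped the untreated ones and no difference passed the test. The log2 fold change of ATF4 against untreated was -0.08 with indisulam (95% interval -0.19 to 0.03), 0.08 with SPHINX31 (-0.03 to 0.19) and 0.02 with the combination (-0.09 to 0.13). The edgeR adjusted p-values were 0.218, 0.398 and 0.814.

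DDIT3 encodes CHOP, a C/EBP family factor that ATF4 induces and that is linked to cell death under lasting stress. DDIT3 (ENSG00000175197, chromosome 12, 57516588 to 57521737) stood at 38.7 and 42.1 CPM in untreated cells, 25.2 and 24.2 with indisulam, 86.1 and 74.1 with SPHINX31 and 40.7 and 52.7 with the combination. The indisulam libraries were the lowest and the SPHINX31 libraries the highest of the 8, while the combination libraries overlapped the untreated ones. DDIT3 fell by 0.71 on the log2 scale with indisulam (SE 0.106, edgeR adjusted p = 0.000131) and rose 1.98-fold with SPHINX31 (log2 0.99, SE 0.101, edgeR adjusted p = 8.15e-05). With the combination its log2 fold change was 0.21 (SE 0.102, edgeR adjusted p = 0.107). That value rested on the combination libraries: it was 0.39 and past the threshold without combination replicate 1 (edgeR adjusted p = 0.00636) and 0.0099 without replicate 2 (edgeR adjusted p = 0.946), and it was also past it with a filter of at least 1 count in total. Exons of MARS1 on the opposite strand cover 27.2% of the exonic bases of DDIT3, and the strand setting of the counting was not stated. Among other members, opposite exons cover 19.5% of ATF5, 12.6% of CEBPB, 14.1% of MTHFD2, 15.6% of PYCR1 and 23.8% of SLC1A5. All opposite exons together cover 31.6% of DDIT3. On the same strand, other exons share 14.1% of PYCR1, 8.03% of DDIT3, 2.56% of ATF5 and 1.04% of SHMT1. ENSG00000289754, a long noncoding gene without counts of its own here, shares 16.5% of NUPR1 on the same strand. The values of these genes are uncertain to that extent.

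ATF3, a stress-induced factor of the ATF family, differed from DDIT3 in its response to indisulam. Its CPM was 20.3 and 19.3 in untreated cells, 22.6 and 21.4 with indisulam, 38.5 and 32.7 with SPHINX31 and 28.9 and 34.3 with the combination. Both SPHINX31 libraries and both combination libraries lay above all untreated and indisulam libraries. ATF3 rose by 0.84 on the log2 scale with SPHINX31 (SE 0.0913, edgeR adjusted p = 0.000116) and by 0.67 with the combination (SE 0.0916, edgeR adjusted p = 4.27e-05). With indisulam alone the log2 fold change was 0.15 (SE 0.0935, edgeR adjusted p = 0.202).

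NUPR1, a small chromatin-associated stress protein, stood at 44.9 and 47.7 CPM in untreated cells, 34.8 and 37.2 with indisulam, 86.6 and 67.5 with SPHINX31 and 52.7 and 68.2 with the combination. The indisulam libraries were the lowest, and the combination libraries lay above the untreated ones and reached into the range of the SPHINX31 libraries. NUPR1 fell by 0.36 on the log2 scale with indisulam (SE 0.119, edgeR adjusted p = 0.0245), rose by 0.73 with SPHINX31 (SE 0.116, edgeR adjusted p = 0.00188) and rose by 0.38 with the combination (SE 0.116, edgeR adjusted p = 0.0138). The decrease with indisulam was not past the threshold with DESeq2 or without untreated replicate 2 or indisulam replicate 1, and the increase with the combination was not past it with DESeq2 or without untreated replicate 1 or combination replicate 2.

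CEBPB and CEBPG, the C/EBP partners of ATF4, rose with SPHINX31 by 0.40 and 0.50 on the log2 scale. CEBPG fell with indisulam by 0.39, where the log2 fold change of CEBPB was -0.06. CEBPB rose with the combination by 0.27, an increase not past the threshold without untreated replicate 2 or combination replicate 2. ATF5, which is translated under the same control as ATF4, fell with indisulam by 0.51 and with the combination by 0.46. The log2 fold change of JDP2, a repressor of the AP-1 family, lay between -0.12 and 0.01 in the 3 comparisons with untreated cells and passed the test in none. Of the 8 factors, 5 rose with SPHINX31, where 4.94% of all tested genes were higher, and 4 fell with indisulam, where 23.5% were lower.

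**Figure D2:**
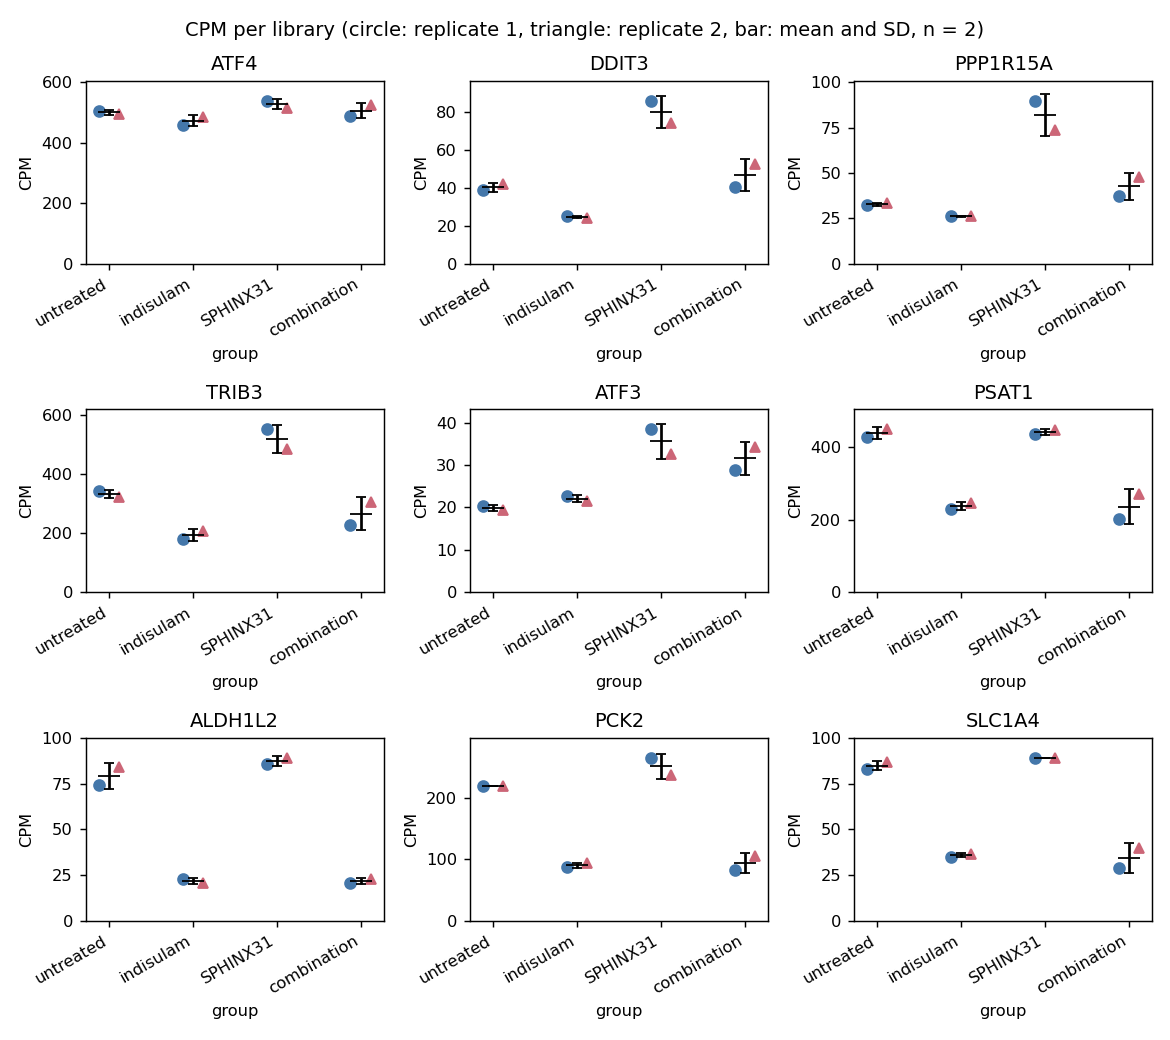
CPM of 9 members in each library, with the group on the horizontal axis, circles for replicate 1, triangles for replicate 2 and bars for the mean and SD of 2 libraries. ATF4 stays between 459 and 539 CPM, DDIT3, PPP1R15A and TRIB3 are highest with SPHINX31, and PSAT1, ALDH1L2, PCK2 and SLC1A4 are low in all 4 libraries with indisulam.

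Among the feedback and stress regulators, PPP1R15A changed most with SPHINX31. It encodes GADD34, which brings protein phosphatase 1 to eIF2 and so ends the translational block. PPP1R15A (ENSG00000087074, chromosome 19, 48872212 to 48876059) stood at 32.2 and 33.3 CPM in untreated cells, 26.1 and 26.5 with indisulam, 90.0 and 73.6 with SPHINX31 and 37.5 and 48.0 with the combination. The groups did not overlap and were ordered indisulam, untreated, combination and SPHINX31. PPP1R15A rose 2.5-fold with SPHINX31 (log2 1.32, SE 0.105, edgeR adjusted p = 9.3e-06), the largest increase of the 38 members in any comparison with untreated cells. It fell by 0.32 with indisulam (SE 0.108, edgeR adjusted p = 0.0296) and rose by 0.39 with the combination (SE 0.106, edgeR adjusted p = 0.00805). The decrease was not past the threshold when any of the 4 untreated and indisulam libraries was left out, and the increase with the combination became 0.20 and was not past it without combination replicate 2.

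TRIB3, a pseudokinase that binds ATF4 and CHOP and restrains them, stood at 343 and 323 CPM in untreated cells, 178 and 208 with indisulam, 552 and 485 with SPHINX31 and 226 and 305 with the combination. Again no group overlapped another, and the combination lay between indisulam and untreated. TRIB3 fell by 0.79 with indisulam (SE 0.112, edgeR adjusted p = 8.52e-05), rose by 0.64 with SPHINX31 (SE 0.111, edgeR adjusted p = 0.00332) and fell by 0.33 with the combination (SE 0.111, edgeR adjusted p = 0.0246). The decrease with the combination was not past the threshold with DESeq2, with scaling by total counts alone, or without untreated replicate 1 or combination replicate 1.

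STC2, a secreted glycoprotein of the stanniocalcin family, stood at 115 and 117 CPM in untreated cells, 72.8 and 71.8 with indisulam, 159.8 and 162 with SPHINX31 and 86.0 and 106 with the combination. The order of the groups was that of TRIB3, with no overlap. STC2 fell by 0.68 with indisulam (SE 0.0746, edgeR adjusted p = 8.6e-06), rose by 0.47 with SPHINX31 (SE 0.0732, edgeR adjusted p = 0.00168) and fell by 0.28 with the combination (SE 0.0738, edgeR adjusted p = 0.00687), a decrease not past the threshold without combination replicate 1.

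VLDLR is a lipoprotein receptor that ATF4 induces under endoplasmic reticulum stress. Its CPM was 96.4 and 93.0 in untreated cells, 37.9 and 38.2 with indisulam, 102 and 99.6 with SPHINX31 and 37.6 and 41.3 with the combination. The 4 libraries with indisulam lay far below the 4 without it. VLDLR fell by 1.32 with indisulam (SE 0.0573, edgeR adjusted p = 4.15e-09) and by 1.26 with the combination (SE 0.057, edgeR adjusted p = 2.27e-09), and with SPHINX31 the log2 fold change was 0.09 (SE 0.0549, edgeR adjusted p = 0.354).

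Of the other regulators, EIF2AK4, which encodes the amino acid sensor kinase GCN2, fell by 0.83 with indisulam and by 0.90 with the combination, and its log2 fold change with SPHINX31 was -0.05. SESN2 and DDIT4, which both restrain mTORC1, fell with indisulam by 0.37 and 0.44 and rose with SPHINX31 by 0.30 and 0.35. CHAC1, which degrades glutathione, fell with indisulam by 0.38, a decrease not past the threshold without indisulam replicate 1. XPOT, the export receptor of tRNA, rose with SPHINX31 by 0.33, an increase not past the threshold when any of the 4 untreated and SPHINX31 libraries was left out. The increases of SESN2, DDIT4 and CEBPB with SPHINX31 likewise failed without untreated replicate 2 or SPHINX31 replicate 1, and that of SESN2 also without untreated replicate 1.

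All 8 enzymes of serine and one-carbon metabolism fell with indisulam and with the combination, where 23.5% and 26.3% of all tested genes were lower. With SPHINX31 the log2 fold changes of the enzymes lay between -0.14 and 0.16. None was past the threshold by edgeR, where SHMT1 had an unadjusted p of 0.0264. PHGDH, PSAT1 and PSPH form the pathway from the glycolytic intermediate 3-phosphoglycerate to serine. PHGDH stood at 225 and 229 CPM in untreated cells, 155 and 169 with indisulam, 263 and 242 with SPHINX31 and 165 and 198 with the combination. PSAT1 (ENSG00000135069, chromosome 9, 78297125 to 78330093) stood at 428 and 449.5 CPM in untreated cells, 230.3 and 245 with indisulam, 436 and 447 with SPHINX31 and 201 and 269 with the combination. PSPH stood at 89.8 and 91.0 CPM in untreated cells, 48.6 and 50.1 with indisulam, 97.7 and 96.6 with SPHINX31 and 47.4 and 57.8 with the combination. In each of these enzymes the 4 libraries with indisulam lay below the 4 without it. With indisulam, PHGDH fell by 0.49 (SE 0.0755, edgeR adjusted p = 0.000176), PSAT1 by 0.88 (SE 0.0954, edgeR adjusted p = 7.62e-06) and PSPH by 0.87 (SE 0.074, edgeR adjusted p = 9.4e-07). With the combination, PHGDH fell by 0.32 (edgeR adjusted p = 0.00304), PSAT1 by 0.90 (4.59e-06) and PSPH by 0.78 (1.56e-06), and the decrease of PHGDH was not past the threshold without combination replicate 1.

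The mitochondrial enzyme ALDH1L2, which oxidizes 10-formyltetrahydrofolate to carbon dioxide and yields NADPH, had the largest decrease of all members with indisulam. ALDH1L2 (ENSG00000136010, chromosome 12, 105019784 to 105107643) stood at 74.1 and 84.1 CPM in untreated cells, 23.0 and 20.4 with indisulam, 85.6 and 89.3 with SPHINX31 and 20.6 and 23.0 with the combination. The libraries with indisulam formed a low group in which the indisulam and combination libraries overlapped. ALDH1L2 fell by 1.86 with indisulam, to 0.275 of the untreated level (SE 0.08, edgeR adjusted p = 4.07e-09), and fell by 1.86 with the combination (SE 0.0798, edgeR adjusted p = 1.45e-09). With SPHINX31 its log2 fold change was 0.15 (95% interval -0.01 to 0.30).

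SHMT1, the cytosolic enzyme that exchanges serine and glycine, stood at 74.7 and 74.1 CPM in untreated cells, 37.7 and 40.5 with indisulam, 64.4 and 70.1 with SPHINX31 and 32.2 and 32.4 with the combination. The combination libraries were the lowest of all. SHMT1 fell by 0.93 with indisulam (SE 0.0595, edgeR adjusted p = 7.52e-08) and by 1.20 with the combination (SE 0.0601, edgeR adjusted p = 5.01e-09). In the mitochondrial branch of the pathway, SHMT2 fell by 0.55 with indisulam, the dehydrogenase and cyclohydrolase MTHFD2 by 0.58 and the formate-producing MTHFD1L by 0.42. With the combination the decreases of these genes were 0.72, 0.53 and 0.50.

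Of the 7 other enzymes of amino acid metabolism, 5 fell with indisulam and 5 fell with the combination. Of all tested genes, 23.5% and 26.3% were lower in these comparisons. CBS, which condenses serine and homocysteine to cystathionine, stood at 19.6 and 18.8 CPM in untreated cells, 5.67 and 5.95 with indisulam, 22.4 and 19.7 with SPHINX31 and 4.72 and 6.22 with the combination. CBS fell by 1.73 with indisulam (SE 0.11, edgeR adjusted p = 7.35e-08) and fell by 1.81 with the combination (SE 0.11, edgeR adjusted p = 2.88e-08). GRCh38 holds a near-identical copy of CBS on the same chromosome 21, so its counts are uncertain. PCK2, the mitochondrial phosphoenolpyruvate carboxykinase, stood at 219 and 219 CPM in untreated cells, 86.5 and 93.2 with indisulam, 265 and 236 with SPHINX31 and 82.6 and 105 with the combination. In CBS and PCK2 the indisulam and combination libraries overlapped, and both groups lay below all other libraries. PCK2 fell by 1.28 with indisulam (SE 0.091, edgeR adjusted p = 1.84e-07) and by 1.22 with the combination (SE 0.0907, edgeR adjusted p = 1.76e-07). The proline synthesis enzymes PYCR1 and ALDH18A1 fell with indisulam by 0.77 and 0.19, and with the combination by 0.98 and 0.40. GPT2, the mitochondrial alanine aminotransferase, fell by 0.67 and 0.71. CTH, which splits cystathionine to cysteine, passed the test in none of the comparisons with untreated cells, with log2 fold changes of -0.09, 0.17 and -0.20 for indisulam, SPHINX31 and the combination.

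ASNS, the asparagine synthetase gene with the matched letters at -68 bases from a RefSeq start, was not among the members that fell. It stood at 5.84 and 6.15 CPM in untreated cells, 6.72 and 5.77 with indisulam, 6.20 and 7.06 with SPHINX31 and 8.03 and 7.28 with the combination. The combination libraries were the highest of the 8. The log2 fold change of ASNS was 0.06 with indisulam (SE 0.109, edgeR adjusted p = 0.674) and 0.15 with SPHINX31 (SE 0.108, edgeR adjusted p = 0.447), and ASNS rose by 0.35 with the combination (SE 0.106, edgeR adjusted p = 0.0137). That increase was not past the threshold without untreated replicate 1 or combination replicate 1. Only 294 to 459 reads per library were counted on ASNS, and 49.3% of its exonic bases are shared on the same strand with a long noncoding gene, ENSG00000284707, so its values are uncertain. Its level in untreated cells, 1.23 CPM per kb of exon, was the lowest per length of the 38 members, and that of SLC7A5, 319 CPM per kb, the highest.

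Among the amino acid transporters, SLC1A4 and SLC6A9 fell most with indisulam. SLC1A4, a carrier of alanine, serine and cysteine (ENSG00000115902, chromosome 2, 64988477 to 65023865), stood at 83.2 and 86.6 CPM in untreated cells, 35.1 and 36.7 with indisulam, 89.4 and 89.3 with SPHINX31 and 28.5 and 39.9 with the combination. SLC6A9, a glycine carrier, stood at 25.5 and 26.5 CPM in untreated cells, 12.4 and 11.7 with indisulam, 32.2 and 28.6 with SPHINX31 and 10.6 and 14.0 with the combination. In both genes the 2 combination libraries lay on either side of the indisulam libraries, and all 4 were below the rest. SLC1A4 fell by 1.24 with indisulam (SE 0.106, edgeR adjusted p = 9.77e-07) and by 1.31 with the combination (SE 0.106, edgeR adjusted p = 3.72e-07). SLC6A9 fell by 1.11 with indisulam (SE 0.106, edgeR adjusted p = 2.69e-06) and by 1.08 with the combination (SE 0.105, edgeR adjusted p = 2.22e-06).

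SLC7A1, a carrier of cationic amino acids, and SLC1A5, a glutamine carrier, fell with indisulam by 0.34 and 0.37 and with the combination by 0.21 and 0.34. The decrease of SLC7A1 with the combination was not past the threshold with scaling by total counts alone, without either untreated or either SPHINX31 library, or without combination replicate 1. SLC7A5, the light chain of the large neutral amino acid carrier, rose by 0.37 with SPHINX31, and its log2 fold change with indisulam was -0.14 (95% interval -0.27 to -0.01, edgeR adjusted p = 0.0828). SLC7A1 had a log2 fold change of 0.25 with SPHINX31 (SE 0.0768, edgeR adjusted p = 0.0618), which was past the threshold with DESeq2, total counts alone, GC correction, at least 1 count in total or only the groups compared, and when 1 indisulam or 1 combination library was left out, whichever it was. SLC38A2, a carrier of small neutral amino acids that is induced by amino acid starvation, passed the test in no comparison with untreated cells, with log2 fold changes between 0.01 and 0.05.

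**Figure D3:**
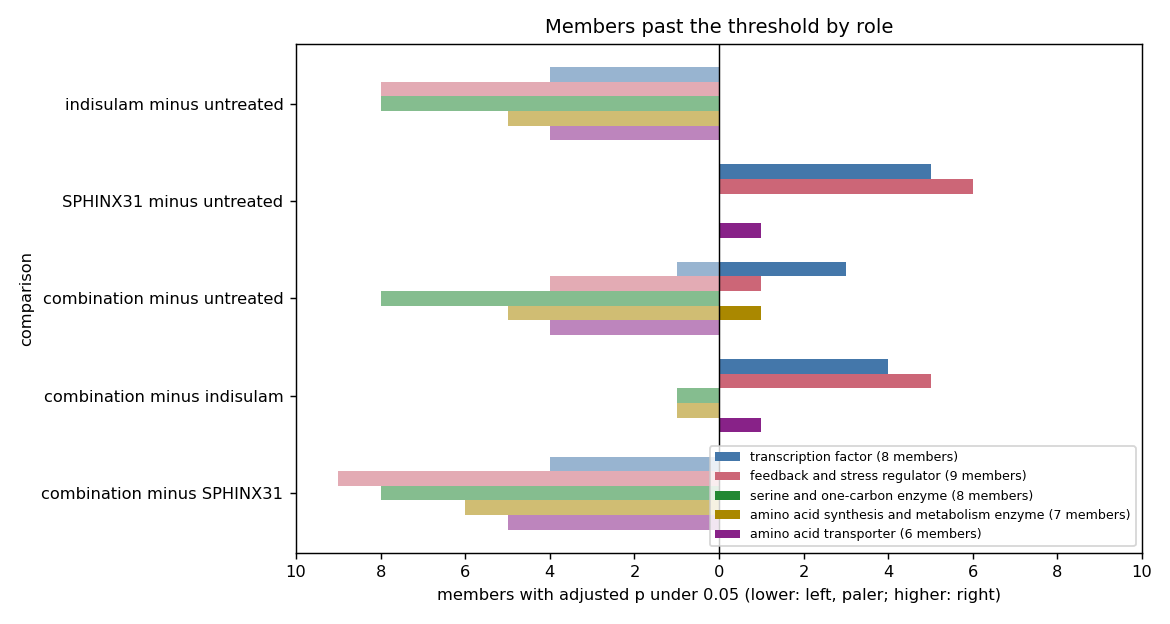
Number of members with an adjusted p under 0.05 in 5 comparisons (vertical axis), by role, with members lower to the left and members higher to the right on the horizontal axis. All 8 serine and one-carbon enzymes are lower in the 3 comparisons of a group with indisulam against one without it. Of all tested genes, between 23.5% and 26.5% were lower in these comparisons. The 12 members higher with SPHINX31 alone, against 4.94% of all genes, are 5 transcription factors, 6 regulators and 1 transporter.

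Each compound was also compared in cells that had received the other one. These fold changes rest on none of the libraries of the same compound's comparison with untreated cells. The spread was estimated from all 8 libraries in 1 fit, so the calls of the 2 comparisons are not independent. Indisulam on top of SPHINX31 (combination minus SPHINX31) left 32 of the 38 members lower, where 26.5% of all tested genes were lower, with a median of -0.62. None was higher by edgeR, by an unadjusted p under 0.05 or by DESeq2, where 23.4% of all genes were higher. The 29 members lower with indisulam alone were all among these 32 (90.6% of the 32), and the other members were CTH, SLC7A5 and XPOT. In the presence of SPHINX31, ALDH1L2 fell by 2.01 on the log2 scale (SE 0.08, edgeR adjusted p = 1.2e-09), CBS fell by 1.94 (SE 0.11, edgeR adjusted p = 1.73e-08) and PCK2 fell by 1.42 (SE 0.091, edgeR adjusted p = 4.99e-08). DDIT3 fell by 0.78, TRIB3 by 0.97 and PPP1R15A by 0.93, whereas the log2 fold change of ATF4 was -0.06 and that of ATF3 -0.17, both not past the threshold. ATF3 ran from -0.30 to -0.04 when 1 library was left out, and was past the threshold as lower without SPHINX31 replicate 2 or without combination replicate 2 (lowest edgeR adjusted p = 0.0317). Without combination replicate 1, 29 members were lower and 1 (JDP2) higher, and without replicate 2, 33 were lower. NUPR1, in which the combination and SPHINX31 libraries overlapped, CHAC1 and SLC7A5 lost their calls without combination replicate 1, NUPR1 and CHAC1 also without SPHINX31 replicate 1, and NUPR1 also with DESeq2.

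SPHINX31 on top of indisulam (combination minus indisulam) left 10 members higher, where 3.17% of all genes were higher, and 2 members lower, where 4.32% of all genes were lower, with a median of 0.06. All 10 were among the 12 members higher with SPHINX31 alone (83.3% of the 12), and CEBPG and XPOT were the others. CHAC1, which is outside the 12, was not past the threshold in the main fit. It was past it as higher with DESeq2, total counts alone, GC correction or at least 1 count in total. CEBPG, with a log2 fold change of 0.27 (edgeR adjusted p = 0.0793), was past the threshold with DESeq2, total counts alone, GC correction or at least 1 count in total, and without combination replicate 1. DDIT3 rose by 0.92 (SE 0.106, edgeR adjusted p = 0.000267), NUPR1 by 0.75 (SE 0.118, edgeR adjusted p = 0.00219) and PPP1R15A by 0.70 (SE 0.108, edgeR adjusted p = 0.00178). ATF3 rose by 0.52 (SE 0.0916, edgeR adjusted p = 0.0044), TRIB3 by 0.46 (SE 0.112, edgeR adjusted p = 0.0246) and STC2 by 0.41 (SE 0.0748, edgeR adjusted p = 0.00562). DDIT4, CEBPB, SESN2 and SLC7A5 rose by between 0.26 and 0.35. The 2 members that fell were SHMT1, by 0.28, and ALDH18A1, by 0.21. The other 7 serine and one-carbon enzymes had log2 fold changes between -0.18 and 0.17.

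The 10 higher members depend on the combination libraries, in which replicate 2 was higher than replicate 1. Without combination replicate 2, 3 members stayed past the threshold as higher, and without replicate 1, 12 members were higher. Without indisulam replicate 1, 5 were higher. DDIT3, NUPR1 and PPP1R15A kept their calls under every alternative that was run, and the calls of ATF3 and STC2 were lost only without combination replicate 2. TRIB3, SESN2, DDIT4, SLC7A5 and CEBPB lost theirs without combination replicate 2 and without indisulam replicate 1. TRIB3 also lost its call with DESeq2, and CEBPB without combination replicate 1 and with a block for the replicate number. SHMT1 was not past the threshold without indisulam replicate 2 or either combination library, and ALDH18A1 not without any of the 4 indisulam and combination libraries or with scaling by total counts alone.

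**Figure D4:**
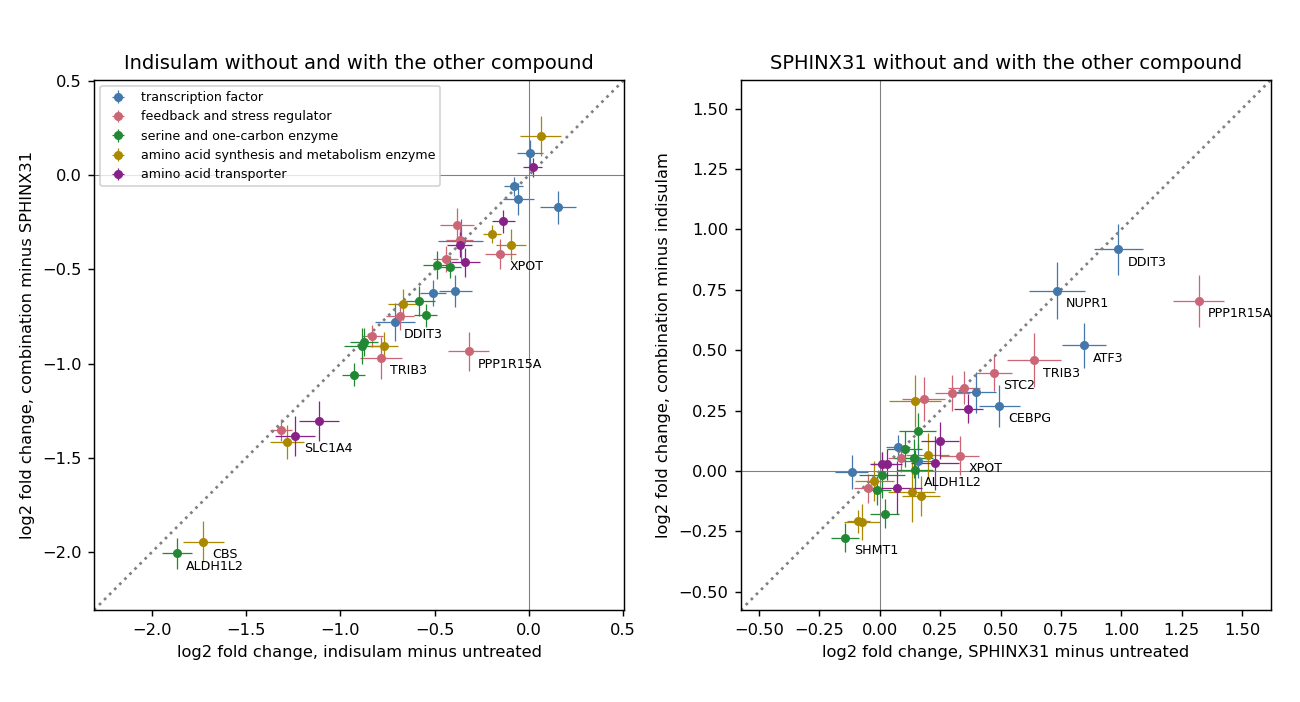
Log2 fold change of each member for a compound alone (horizontal axis) and on top of the other compound (vertical axis), with bars for the standard error, colours for roles and a dotted line of equal change. On the indisulam panel ALDH1L2 lies at -1.86 and -2.01, and on the SPHINX31 panel DDIT3 lies at 0.99 and 0.92 and PPP1R15A at 1.32 and 0.70.

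The difference between these pairs of comparisons is the interaction term, the change with the combination beyond the sum of both compounds alone on the log2 scale. No member and no gene of all 18661 (0%) passed an adjusted p under 0.05 in edgeR. At an unadjusted p under 0.05 in edgeR were 5 of the 38 members, all negative, and 1584 of the 18661 genes. The 1584 genes were not split by sign, so the shared sign of the members has no background to be read against. The members were PPP1R15A, ATF3, SHMT2, XPOT and CTH. PPP1R15A had the largest term, -0.62 (95% interval -0.94 to -0.29, edgeR adjusted p = 0.339), and ATF3 had -0.32 (-0.60 to -0.05, edgeR adjusted p = 0.537). With DESeq2 the term of PPP1R15A was past the threshold (-0.62, adjusted p = 0.0274), and over all alternatives its adjusted p ranged from 1.24e-06 to 0.918. For DDIT3 the term was -0.07 (95% interval -0.38 to 0.25), for ALDH1L2 -0.14 (-0.38 to 0.10) and for ATF4 0.02 (-0.13 to 0.18).

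Upstream of ATF4, the genes of the eIF2 kinases and of the eIF2 machinery did not share a direction. A list of 16 genes for the other eIF2 kinases, eIF2, eIF2B and their regulators held 6 higher genes (37.5%) and 4 lower genes (25%) with indisulam, where 20.1% and 23.5% of all tested genes were higher and lower, with a median of 0.06. It also held 6 higher and 4 lower genes with the combination, where 23.8% and 26.3% of all genes were higher and lower, with a median of -0.02. The shares of lower genes were near those of all genes. With SPHINX31, 1 gene of the list (6.25%) was lower and 0 were higher, where 3.67% and 4.94% of all tested genes were lower and higher. The lower gene was GCN1, the activator of GCN2, which fell by 0.17. EIF2AK2, which encodes the double-stranded RNA sensor PKR, rose by 0.57 with indisulam (SE 0.0646, edgeR adjusted p = 1.23e-05) and by 0.62 with the combination (SE 0.0645, edgeR adjusted p = 3.56e-06), and had a log2 fold change of -0.04 with SPHINX31. Its CPM was 110.1 and 112 in untreated cells, 168 and 161 with indisulam, 99.9 and 116 with SPHINX31 and 167 and 175 with the combination. The 4 libraries with indisulam lay above the 4 without it. EIF2AK1, the heme-regulated kinase, had log2 fold changes of 0.06, -0.05 and -0.06 with indisulam, SPHINX31 and the combination, and EIF2AK3, which encodes the endoplasmic reticulum sensor PERK, had -0.03, 0.13 and -0.15, none past the threshold.

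A list of 18 other genes known to respond to ATF4, among them cytosolic aminoacyl-tRNA synthetases, was counted in the same way. This list, like the others here, was chosen with earlier results of these data known, so its counts are no independent check of the members. With indisulam 14 of the 18 fell, where 23.5% of all tested genes were lower, with a median of -0.51. With SPHINX31 4 rose, where 4.94% of all genes were higher, with a median of 0.18. With the combination 12 fell and 1 (GDF15) rose, where 26.3% and 23.8% of all genes were lower and higher, with a median of -0.44. SLC7A11, the cystine and glutamate exchanger, had the largest decrease, at 587 and 636 CPM in untreated cells, 129 and 116 with indisulam, 660.0 and 742 with SPHINX31 and 139 and 146 with the combination. The 4 libraries with indisulam lay far below the others. SLC7A11 fell by 2.32 with indisulam (SE 0.0704, edgeR adjusted p = 2.07e-10) and fell by 2.10 with the combination (SE 0.0697, edgeR adjusted p = 3.4e-10). GDF15, a secreted stress cytokine, was at 37.5 and 37.0 CPM in untreated cells, 34.8 and 43.2 with indisulam, 97.6 and 79.6 with SPHINX31 and 79.1 and 87.1 with the combination. The SPHINX31 and combination libraries lay above all others. GDF15 rose by 1.25 with SPHINX31 (SE 0.102, edgeR adjusted p = 1.15e-05) and by 1.16 with the combination (SE 0.101, edgeR adjusted p = 8.09e-07). The other genes that rose with SPHINX31 were SLC3A2, VEGFA and WARS1. The tRNA synthetase genes EPRS1 and MARS1 fell with the combination by 1.18 and 1.01 and with indisulam by 0.98 and 0.87, while their log2 fold changes with SPHINX31 were -0.04 and 0.07.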

How the data were processed

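RNA of 8 A549 libraries, 2 technical duplicates for each of 4 groups, was analysed from gene counts. Per the labels and methods, strand-specific libraries of poly(A) RNA were read as 150 bp pairs, and the submitters' processing notes name GRCh38, HISAT2 2.2.1 and HTSeq. The authors deposited raw counts of reads per Ensembl gene without normalization, and neither the strand setting nor the annotation of the counting is given in the sources used here. Reads recorded as ambiguous, without a feature or without a unique alignment were left out of library sizes, and the counts on genes made up between 83.0% and 86.0% of the recorded reads. At this depth counting error is small for most members, and the spread between duplicates exceeded it (chi-square per degree of freedom between 6.59 and 10.7).

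Symbols and positions came from GENCODE 44 on GRCh38, which held 99.7% of the tested genes, and promoter windows from RefSeq on GRCh38.p14. The members and the gene lists were chosen with earlier results of these data known. Counts were filtered with filterByExpr, scaled with TMM (factors from 0.978 to 1.02) and tested by the quasi-likelihood test of edgeR 4.0.16 (R 4.3.3, limma 3.58.1). All 8 libraries entered 1 fit, which left 4 residual degrees of freedom, and Benjamini-Hochberg adjustment ran over all 18661 genes, with calls at an adjusted p under 0.05. The scripts were first tested on simulated counts. To obtain CPM, each count was divided by the TMM-adjusted size of its library, and tables and figures were made in Python 3.11.15.

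Values per library are given for members past the threshold that rose or fell by 1 or more on the log2 scale against untreated cells, for ATF4, DDIT3, ASNS, PHGDH, PSAT1 and PSPH, and for members past it in combination minus indisulam with at least 0.4. In the lists, the eIF2 kinases are named, genes past the threshold with at least 1, and genes of counts of 5 or fewer, chosen after their values were seen. Alternatives were RLE size factors, total counts alone, DESeq2 1.42.0, looser and stricter count filters, only the groups compared, GC correction, a replicate block, leaving out each library and a threshold of 0.1. Blocks with exchanged numbers were added after the data were seen.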

Additional observations from a re-analysis of the deposited data

How the results depend on the processing

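No called fold change of a member changed sign under any alternative run. Of the calls in the comparisons with untreated cells, 26 of 29 with indisulam, 8 of 12 with SPHINX31 and 19 of 27 with the combination held under every alternative run. For combination minus SPHINX31 29 of 32 held, and for combination minus indisulam 3 of 12. Leaving out 1 library at a time, members lower with indisulam numbered 26 to 30 and higher 0 to 0. With SPHINX31, 8 to 13 were higher and 0 to 0 lower, and with the combination 2 to 6 were higher and 18 to 24 lower. For combination minus indisulam, 3 to 12 were higher and 0 to 2 lower, for combination minus SPHINX31, 0 to 1 were higher and 29 to 33 lower, and for the interaction 0 to 0 in either direction. A group left with 1 library was assumed to vary like the others.

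The 2 members lower in combination minus indisulam became 1 with total counts alone and 4 with at least 1 count in total, with GC correction, with GC correction and the replicate block together, and with a block in which the numbers of the indisulam and combination groups were exchanged. The 0 members lower in the interaction became 1 (PPP1R15A) with DESeq2, with at least 1 count in total and with that exchanged block. The causes were not tested.

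Equal replicate numbers did not pair the libraries in the same way in all groups. Over 12004 genes, the deviations of equal numbers correlated at 0.37 for untreated and SPHINX31. They correlated at -0.445 for untreated and indisulam and at -0.409 for indisulam and SPHINX31. Correlations with the combination ran from -0.00991 to 0.13. The libraries thus shared some deviations, which the main fit did not model and whose cause was not tested. With the replicate block, 29 members were lower with indisulam, 12 higher with SPHINX31, 5 higher and 22 lower with the combination, 9 higher (CEBPB lost, adjusted p = 0.0547) and 2 lower in combination minus indisulam, 32 lower in combination minus SPHINX31 and 0 past the threshold in the interaction. With the numbers of the indisulam group exchanged, 14 were higher with SPHINX31 and 12 in combination minus indisulam. Depth limits ASNS, at 294 to 459 counts, and CBS, at 270 to 1214 counts, more than other members.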

Other observations

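Paralogs of the members that are not counted among the usual ATF4 targets were listed as well, 21 genes in all. With indisulam 6 were higher and 7 lower than in untreated cells, with a median log2 fold change of 0.09. These shares were 28.6% and 33.3%, where 20.1% and 23.5% of all tested genes were higher and lower. With SPHINX31, SESN3, SLC1A3 and TRIB2 were lower.

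SLC1A3, a glutamate carrier and paralog of SLC1A4 and SLC1A5, stood at 4.48 and 4.65 CPM in untreated cells, 10.0 and 9.44 with indisulam, 2.47 and 2.26 with SPHINX31 and 7.31 and 7.27 with the combination. The groups did not overlap, and indisulam was highest and SPHINX31 lowest. SLC1A3 rose by 1.09 on the log2 scale with indisulam (SE 0.0925, edgeR adjusted p = 9.33e-07), fell by 0.95 with SPHINX31 (SE 0.11, edgeR adjusted p = 0.000193) and rose by 0.68 with the combination (SE 0.0945, edgeR adjusted p = 5.46e-05). Its interaction term was 0.53 (95% interval 0.23 to 0.84, edgeR adjusted p = 0.348). GPT, the cytosolic alanine aminotransferase and paralog of GPT2, rose by 1.77 with indisulam (SE 0.362, edgeR adjusted p = 0.00148) at only 7 to 39 counts per library.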
